A study of Mus musculus with 173 samples.

Results

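The 6 genes described here encode the actin of the cell skeleton and the small proteins that hold, recycle and sever it: the cytoplasmic actins Actb and Actg1, the beta thymosins Tmsb4x and Tmsb10, profilin 1 (Pfn1) and cofilin 1 (Cfl1). They were chosen by name from the 23307 gene rows of a single-cell expression table in which their levels across library classes, and in cycling and non-cycling cells, had already been seen, so the levels and differences of these rows are a description and carry no test. All 6 were among the 12007 genes that reached 1 TPM (transcript share on a common scale, corrected for transcript length) in at least 5% of libraries. The libraries were made from single cells of the dentate gyrus, the part of the hippocampus that goes on forming granule neurons in adult life. The donors were C57BL/6 mice of 8 to 12 weeks. The study profiled quiescent neural stem cells of the adult hippocampus and the cells that arise directly from them. Of 172 libraries, titles put 4 in class R and 26 in class N, and all others in class C. The labels do not spell out these letters and name no animal, sort or transgenic line, so each class counts as 1 sample and no p-value is given.

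The classes were checked against marker levels. A custom row for the fluorescent protein eCFP had a median of 11.99 TPM in R libraries (5.01 to 107.9), 8739 TPM in C libraries (482 to 33811) and 44.6 TPM in N libraries (17.3 to 1306), so eCFP was above every R value in all C libraries. A list of neural stem cell markers reached a mean log2(TPM + 1) of 4 in 2 of 4 R libraries, 85.2% of C libraries and 2 of 26 N libraries, and a mature neuron list did so in 4 R, 7 C and 0 N libraries. In N, the lists that led were endothelial (7 libraries), oligodendrocyte (4), oligodendrocyte precursor (4), mural (3), neuroblast (2), erythroid (2) and astrocyte (1), with none at 4 in 3 libraries. Among C libraries, 16 held a vascular, oligodendrocyte lineage, microglia or mature neuron list at 4 or above. Median numbers of genes at 1 TPM were 3240.5 in R, 3701 in C and 3565 in N. Read depth cannot be had from TPM. A value listed at 0 may be a failed estimate, since Gapdh was listed at 0 in 2 libraries.

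As background, actin subunits join filaments at one end and leave them at the other, and the turnover of filaments drives cell shape, migration and the division of the cell body. Beta thymosins bind single actin subunits and keep them from joining filaments. Profilin loads subunits with ATP and delivers them to the growing end, and cofilin severs ageing filaments and returns subunits to the pool. Beta thymosins are abundant in young neurons of the developing brain and, outside it, in endothelial and blood cells.

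The members come in near pairs, which bears on how well a short read can be assigned. The complete coding sequences of the thymosins, from the GENCODE M21 transcripts, have the same length and share 95 bases (70.4%) without a gap, with 40 that differ. They are shown because their difference is what separates Tmsb4x from Tmsb10, the pair that the results turn on; capitals mark each base at which one differs from the other.
Tmsb4x: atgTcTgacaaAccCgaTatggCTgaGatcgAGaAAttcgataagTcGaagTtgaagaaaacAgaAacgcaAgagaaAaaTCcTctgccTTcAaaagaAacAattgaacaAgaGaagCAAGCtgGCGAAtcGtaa
Tmsb10: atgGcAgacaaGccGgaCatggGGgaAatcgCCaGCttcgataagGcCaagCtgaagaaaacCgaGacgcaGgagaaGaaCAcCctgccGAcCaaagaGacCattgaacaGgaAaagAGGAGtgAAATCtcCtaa
The actins are closer, with 1000 of 1128 coding bases (88.7%) identical between Actb and Actg1. The first 60 coding bases show 9 differing bases, again in capitals.
Actb: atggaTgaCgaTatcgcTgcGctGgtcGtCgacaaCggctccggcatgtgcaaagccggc
Actg1: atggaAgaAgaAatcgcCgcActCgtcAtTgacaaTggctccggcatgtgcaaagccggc

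Over whole transcripts, no stretch of 50 bases of Tmsb4x (chromosome X) or Pfn1 (chromosome 11) recurred in the transcript of another gene. Such stretches made up 14.2% of Actb (chromosome 5), mostly shared with Lrrc58 (9.57%), a gene that has a row of its own. Such stretches made up 56.7% of Actg1 (chromosome 11), most of it shared with the predicted gene Gm12715 (51.1%), which has no row here; 2.10% was shared with genes that have one. For Tmsb10 (chromosome 6) the share was 56.8%, with Gm9844 the largest partner (45.3%), and for Cfl1 (chromosome 19) it was 9.11%, and the partners of both have no row here. How the authors' estimator treated reads from such copies is not given in the sources used here, so Actg1 and Tmsb10 levels may include or lose reads of copies, and this was not tested. Acta1, the skeletal muscle actin, shares stretches with both actins and is read with the same doubt.

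By median TPM the order in C was Actb, Tmsb4x, Actg1, Cfl1, Pfn1 and Tmsb10, with neighbours in it overlapping widely, and Tmsb4x stood above Actb in R. Actb had the smallest SD of the 6 in C and N. In R libraries it stood at 2328, 5326, 4162 and 5363 TPM. In C libraries it ran from 808.5 through a median of 3379 to 31083 TPM, and in N libraries from 1672 through 6904 to 21628 TPM. No library listed it at 0, and all but 1 of the 172 libraries held it above 1000 TPM. Its SD over C libraries was 0.72 on the log2(TPM + 1) scale, against a median SD of 3.24 among the 200 genes with the highest mean, of which only the ribosomal RNA gene Rn45s varied less. Mean log2 level was 1.09 lower in C (11.67 ± 0.72) than in N (12.76 ± 0.90, SD, n = 26), a gap wider than either SD, while R (11.99 ± 0.57, n = 4) and C lay 0.33 apart, within the spread of both.

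Actg1, the second cytoplasmic actin, was present in every library but far less even. R libraries had 623, 1967, 1429 and 987 TPM, and the 4 stood inside the range of both other classes. In C libraries Actg1 ran from 1.4 through a median of 1036 to 8087 TPM, with 28 libraries (19.7%) under 100 TPM. In N libraries it ran from 12.4 through 1423 to 5416 TPM. The mean log2 difference was 1.32 for R minus C and -0.46 for C minus N, both within the SD over C libraries (2.97). Within a library, Actb exceeded Actg1 in all 4 R libraries, 88.03% of C libraries and all 26 N libraries. The median ratio of Actb to Actg1 was 3.33 in R, 3.30 in C and 4.64 in N.

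Tmsb4x, the more abundant beta thymosin, was high in all 4 R libraries and spread widely in C and N. R libraries had 6197, 9559, 6642 and 6498 TPM, all above the C median and within the C range. C libraries ran from 0 through a median of 1702 to 40550 TPM, 6 of them listed at 0 and 57 (40.1%) under 1000 TPM. N libraries ran from 0 through 3657 to 85037 TPM, with 7 of 26 under 1000 TPM. On the log2 scale Tmsb4x was 3.50 higher in R (12.80 ± 0.29) than in C (9.30 ± 3.76) and 1.86 lower in C than in N (11.16 ± 3.68). Both gaps were smaller than the SD over C libraries.

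Tmsb10, the second thymosin of the pair, was listed at 0 in most C libraries. R libraries had 501, 265, 111.1 and 0 TPM. Of C libraries 77 (54.2%) listed it at 0 and 42 (29.6%) reached 100 TPM, with a highest value of 2826 TPM. In N libraries it was listed at 0 in 8 of 26 and reached 100 TPM in 15, with a median of 153.7 and a highest value of 7347 TPM. Mean log2 level was 2.55 higher in R than in C and 2.71 lower in C than in N, both within the SDs of 4.02 in C and 4.71 in N. Where both thymosins were above 1 TPM, the median ratio of Tmsb4x to Tmsb10 was 36.1 in R (3 libraries), 9.02 in C (63) and 11.6 in N (17).

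On the scale of the table as deposited, Pfn1 and Cfl1 differed by less than 1 in mean log2 level between the classes. Pfn1 stood at 0, 1720, 591 and 0 TPM in R libraries, ran from 0 through 37.3 to 2116 TPM in C and from 0 through 13.8 to 2870 TPM in N, with 34 C (23.9%) and 5 of 26 N libraries listed at 0. Cfl1 stood at 871, 698, 1704 and 52.01 TPM in R, ran from 0 through 537.4 to 3536 TPM in C and from 0 through 596 to 5253 TPM in N. For Pfn1 the log2 difference was -0.27 for R minus C and 0.13 for C minus N, and both signs turned when libraries were rescaled or mean TPM compared. For Cfl1 it was 0.89 and -0.21, under SDs of 2.81 in C and 3.09 in N. After rescaling the Cfl1 values were 1.95 and -1.46, and without R4 its R minus C was 1.96.

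Summed, the 6 genes gave a median of 1.38% of all transcripts in R (1.05% to 1.95%), 0.748% in C (0.151% to 7.21%) and 1.75% in N (0.194% to 10.04%). With a difference of at least 1 on the log2 scale as the call, 3 members were called lower in C than in N (Actb, Tmsb4x, Tmsb10), where 4.19% of the 12007 genes were called lower and 9.98% higher. In R minus C, 3 members were called higher (Actg1, Tmsb4x, Tmsb10), where 20.9% of genes were called higher and 22% lower. These contrasts chose the members, so nothing is read from the counts. The median over the 6 was -0.78 for C minus N and 1.11 for R minus C, beside 0.17 and -0.36 over all genes. The scaling of the table matters here: a rescaling over 740 widely present genes shifted C minus N by -1.23 and R minus C by 1.06, turned the split of all genes in C minus N (1198 higher, 503 lower) into 531 higher and 1035 lower, and brought the C minus N values to -2.32 for Actb, -1.66 for Actg1 and -1.46 for Cfl1. The median over all genes was -0.03 after rescaling, against 0.17 before. The size of the shift is close to the change in each of those 3 values. As a ratio of mean TPM, R over C was 1.004 for Actg1 and 1.11 for Tmsb10, so those calls hold for means of log2 values and not for means of TPM.

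**Figure D1:**
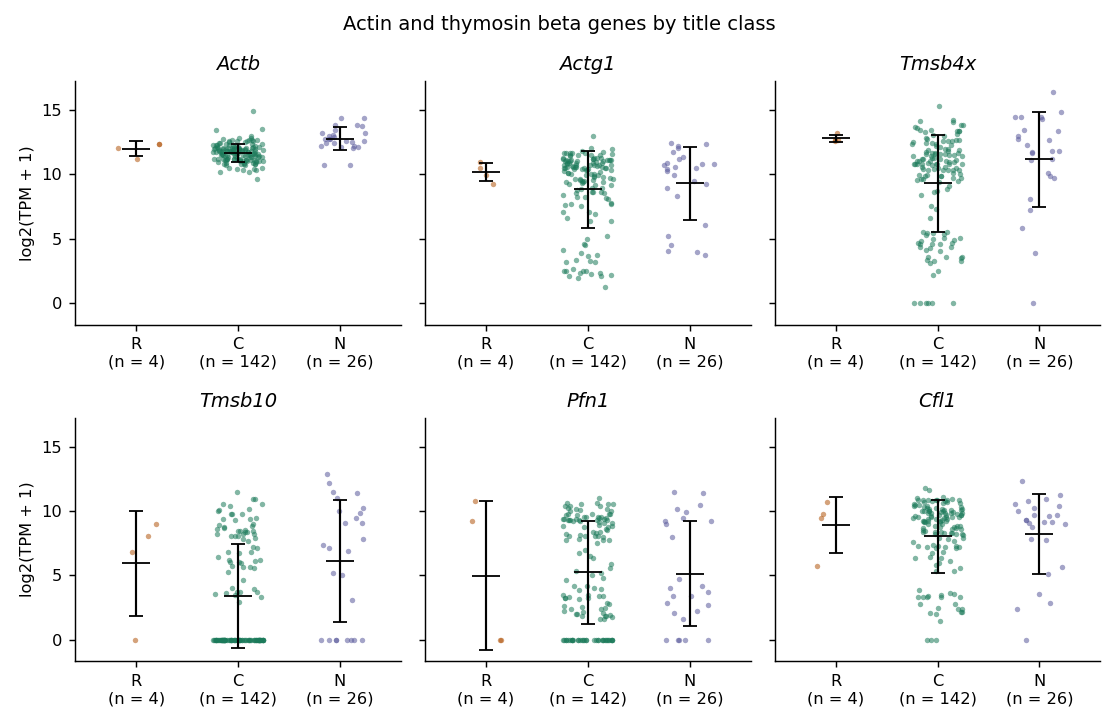
Levels of the 6 genes in single-cell libraries, as log2(TPM + 1) on the vertical axis, for classes R (4 libraries), C and N (26); each point is 1 library, the black bar the class mean and the whiskers 1 SD. Actb forms a narrow band in every class, whereas Tmsb10 is listed at 0 in 1 R, 77 C and 8 N libraries.

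Within N the levels differed between libraries led by different marker lists. In the 7 endothelial-led libraries Tmsb4x stood at 11319, 20418, 85037, 28460, 10782, 21888 and 0 TPM, so 6 of 7 were above 10000 TPM, and their Tmsb10 median was 1217 TPM. The library with Tmsb4x listed at 0 (N21) still had 2055 TPM of Tmsb10 and 33005 TPM of the endothelial gene Ly6c1. N21 also had the fewest genes at 1 TPM of all libraries (1600). N5, with the highest Tmsb4x (85037 TPM) and Tmsb10 (7347 TPM) of all libraries, had 6070 TPM of Ly6c1. N4, with 20418 TPM of Tmsb4x, had only 21.3 TPM of Ly6c1 and held 8563 TPM of the microglial gene Tyrobp, with Fcer1g, C1qa and C1qb at 0. The 3 mural-led libraries, whose lists hold pericyte and smooth muscle genes, had 31.8, 0 and 7.48 TPM of Tmsb10. Their Actb was 14328, 20907 and 13794 TPM, within the range of the endothelial-led libraries (5438 to 21628 TPM, median 9672, 3 of 7 above 10000). Tmsb4x in those 3 was 2287, 152 and 2211 TPM.

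The oligodendrocyte lineage split the monomer binders another way. In 4 oligodendrocyte-led libraries Tmsb4x ran from 930 to 6693 TPM and Tmsb10 was listed at 0 in 3. In 4 precursor-led libraries Pfn1 was 605, 1146, 705 and 602 TPM, whereas it was 2.05 to 5.38 TPM in 3 of 4 oligodendrocyte-led libraries and 963 TPM in the other. The 6 precursor-led libraries of C were less even, with Pfn1 from 0 to 1516 TPM, 4 of them at 100 TPM or above and 2 under it. The single astrocyte-led library of N (N11) had low values of the monomer binders, with 13.5 TPM of Tmsb4x and 0 TPM of both Tmsb10 and Pfn1. The 2 astrocyte-led libraries of C (C103 and C118) had 340 and 3663 TPM of Tmsb4x, 0 TPM of Tmsb10 and 47.96 and 8.4 TPM of Pfn1. In the neuroblast-led pair Tmsb4x was 22217 and 829 TPM and Tmsb10 2889 and 143 TPM. Without the 11 N libraries with an endothelial or mural list at 4, C minus N was -0.59 for Actb, under the call, -1.33 for Tmsb4x, -1.76 for Tmsb10 and -1.12 for Cfl1, now past it. Without the 8 of the oligodendrocyte lineage, Tmsb10 was -4.14.

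**Figure D2:**
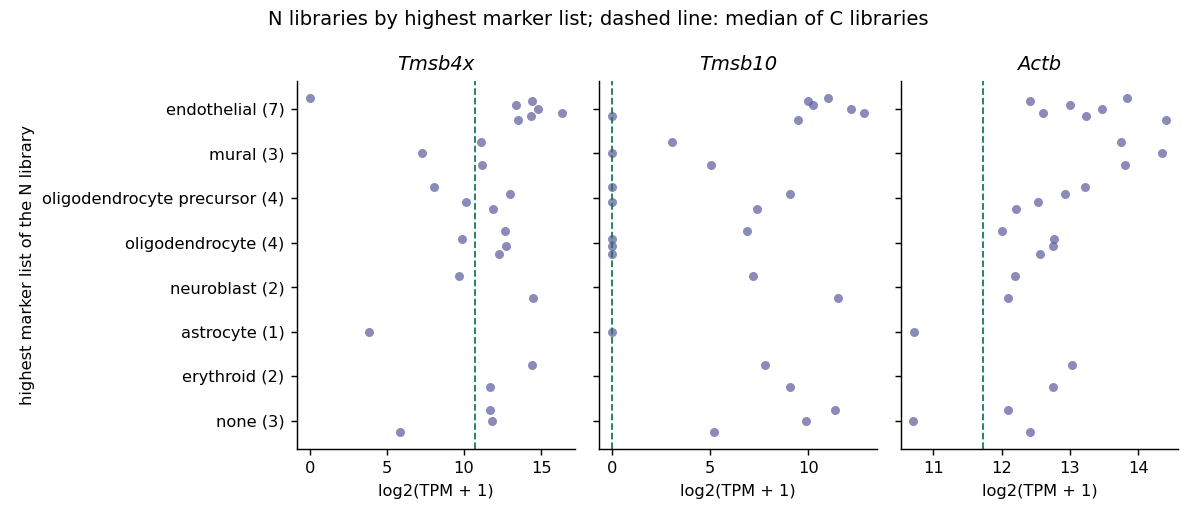
Tmsb4x, Tmsb10 and Actb in the 26 N libraries as log2(TPM + 1) on the horizontal axis, in rows by the marker list with the highest mean (number of libraries in brackets); the dashed line is the median of the C libraries, at 0 for Tmsb10. Of 7 endothelial-led libraries 6 lie right of the line for Tmsb4x. For Actb most N libraries lie right of it, among them all 7 endothelial-led and all 3 mural-led ones, and the Tmsb10 of the mural-led ones is 31.8 TPM or less.

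All 4 R libraries were led by the mature neuron list, whose summed level ran from 4122 to 8951 TPM. Their summed stem cell list ran from 4967 to 6876 TPM, and their summed microglia list had a median of 960 TPM, against 5.53 TPM in C. Tyrobp, a microglial signalling gene, was at 0 in 3 of the 4 and Fcer1g in all 4, while P2ry12 reached 977 TPM. Ly6c1 stood at 1370 TPM in R1 and 720 TPM in R3 and at 0 in the others. The part of other cell types in the R levels was not tested. Leaving out each R library in turn gave R minus C of 3.36 to 3.56 for Tmsb4x, 1.07 to 1.62 for Actg1 and 1.55 to 4.54 for Tmsb10. For Pfn1, at 0 in R1 and R4, the range was -2.19 to 1.40.

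Within C, libraries were called cycling when the mean log2(TPM + 1) of an S phase list or of a G2 and mitosis list, neither holding a member, was at least 3. That gave 30 cycling libraries, with all other C libraries non-cycling. Of the 30, 12 passed by both lists, 12 by the S phase list alone and 6 by the G2 and mitosis list alone. The proliferation gene Mki67 reached 1 TPM in 19 of 30 cycling libraries (63.3%) and 7 non-cycling ones (6.25%). The stem cell list summed to a median of 4937 TPM in cycling and 31010 TPM in non-cycling libraries, and the intermediate progenitor list to 1445 and 134.1 TPM, so the groups differ in cell type markers as well as in cycle genes and those cannot be told apart here.

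Both thymosins stood higher in cycling libraries. Tmsb10 had a median of 386.6 TPM in cycling and 0 TPM in non-cycling libraries. It was listed at 0 in 3 of 30 cycling libraries, against 74 non-cycling ones (66.1%). It reached 100 TPM in 22 of 30 (73.3%) cycling libraries and in 20 non-cycling ones (17.9%). The animals behind these cells are not named, so the shares carry no interval. The mean log2 difference of Tmsb10, 5.36, ranked 11 among the 12007 genes, and the other members ranked from 92 (Tmsb4x) to 4637 (Actb). The rule had used these levels, so nothing is read from the ranks. Tmsb4x ran from 15.2 through a median of 5806 to 19211 TPM in cycling libraries and from 0 through 1070 to 40550 TPM in non-cycling ones. Its difference was 3.70 on the log2 scale, and 28 of 30 cycling libraries, against 57 non-cycling ones (50.9%), held at least 1000 TPM.

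Pfn1, the profilin that competes with thymosins for subunits, was likewise higher in cycling libraries. Its median was 504.8 TPM in cycling and 9.63 TPM in non-cycling libraries, a difference in mean log2 of 3.20. It was listed at 0 in 1 of 30 cycling and 33 non-cycling libraries (29.5%). Actg1 had medians of 1637 TPM in cycling and 853 TPM in non-cycling libraries and a difference of 1.55. Actb (3950 TPM in cycling and 3052 TPM in non-cycling libraries, difference 0.24) and Cfl1 (568 and 486 TPM, difference 0.67) stayed under the call. So 4 of 6 members were called higher, where 15.1% of all genes were called higher and 4.14% lower; the rule had used these levels, and nothing is read from the count. As the log2 of the ratio of mean TPM, the differences were 2.96 for Tmsb10 and 1.74 for Tmsb4x, while Pfn1 (0.91), Actg1 (0.59) and Cfl1 (-0.22) fell short of the call. The sum of the 6 genes had a median of 1.25% of transcripts in cycling and 0.682% in non-cycling libraries.

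**Figure D3:**
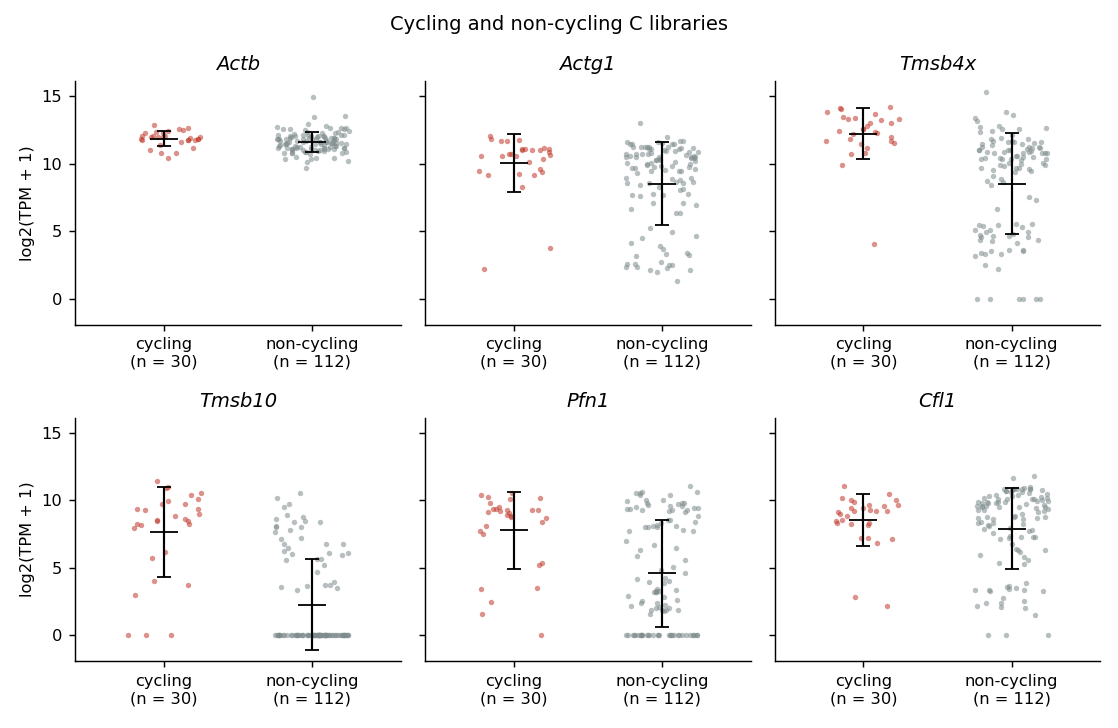
The 6 genes in 30 cycling and all non-cycling C libraries, as log2(TPM + 1) on the vertical axis; points are libraries, bars means and whiskers 1 SD. Tmsb10 is listed at 0 in 3 cycling and 74 non-cycling libraries, and Actb overlaps almost wholly between the groups.

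Among cycling libraries, Tmsb10 had a median of 62.5 TPM (0 to 2826) in the 12 libraries that passed by the S phase list alone. It was 563 TPM (0 to 1367) in the 12 that passed by both and 1082 TPM (301 to 2000) in the 6 that passed by the G2 and mitosis list alone. Tmsb4x had medians of 5210, 6713 and 7490 TPM in the same order, but its mean log2 levels were 12.24, 12.57 and 11.48, lowest in the last group, which holds the library with 15.2 TPM. Actb had 3565, 3661 and 4867 TPM. Pfn1 had medians of 576, 492 and 381 TPM and mean log2 levels of 8.36, 6.97 and 8.23, so the groups of neither gene have the same order on both measures. For each of these genes the ranges of the 3 groups overlap. The groups also hold libraries led by different cell type lists, so phase and cell type cannot be told apart here.

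Libraries next to the limit of 3 bear on how sharp the grouping is. The 3 highest non-cycling libraries (list means 2.22, 2.52 and 2.65) had 5323, 14269 and 6526 TPM of Tmsb4x and 0 TPM of Tmsb10 in each; the first of them (C85) had an endothelial list mean of 6.48 and 12419 TPM of Ly6c1. The 3 lowest cycling libraries (3.01, 3.06 and 3.12) had 3206, 11141 and 6108 TPM of Tmsb4x and 242, 294 and 374 TPM of Tmsb10. Within 0.5 of the limit lay 5 libraries. With a limit of 2 the Tmsb10 difference was 4.16 and with a limit of 4 it was 5.25, while calling by Mki67 at 10 TPM gave 5.81.

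Other cell types and library quality were set beside these differences. A vascular, oligodendrocyte lineage, microglia or mature neuron list was at 4 or above in 3 of 30 cycling and 13 non-cycling libraries (11.6%), and without those the differences were 5.53 for Tmsb10, 4.07 for Tmsb4x and 3.56 for Pfn1. List means used tested genes only, which for microglia were 7 of 12 and did not include Tyrobp or Fcer1g. The whole list of microglia, a cell type rich in Tmsb4x, summed to a median of 3.81 TPM and at most 632 TPM in cycling libraries, and to a median of 6.42 TPM and at most 40903 TPM in non-cycling ones. Of its defining genes Tyrobp, C1qa and C1qb were at 0 in all 30 cycling libraries, Fcer1g in 29, P2ry12 in 28 and C1qc in 27, where C1qc reached 150 TPM, while Cx3cr1 was at 0 in 1 and reached 24.6 TPM. The median number of genes at 1 TPM was 3939.5 in cycling and 3651.5 in non-cycling libraries, and median eCFP was 5426 and 9081 TPM; their part in the result was not tested. The non-cycling library C142 held the highest Actb (31083 TPM) and Tmsb4x (40550 TPM) of C together with 19135 TPM of Tyrobp, 21725 TPM of Fcer1g and the lowest eCFP of the class (482 TPM). C142 had a microglia list mean of 1.31, so it was not among the libraries left out above. Without C142 the Tmsb4x difference was 3.77. The cycling library C140, with an endothelial and a mature neuron list at 4, had 17821 TPM of Tmsb4x, and the Tmsb4x difference without it was 3.64.

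The thymosins were high together in most cycling libraries. Tmsb4x of at least 1000 TPM along with Tmsb10 of at least 100 TPM was found in 21 of 30 cycling and 12 non-cycling libraries (10.7%). Tmsb4x reached its limit alone in 7 of 30 cycling and 45 non-cycling libraries (40.2%), and Tmsb10 alone in 1 and 8. The 1 cycling library with Tmsb10 alone had 15.2 TPM of Tmsb4x beside 1901 TPM of Tmsb10. Spearman's rho between the pair was 0.53 over the 30 cycling, 0.06 over the non-cycling and 0.37 over all C libraries. Libraries share one protocol and scale, and these rho values are descriptions with no p. Of the 15 pairs of members, the next highest over all C libraries was Actg1 with Tmsb4x (0.26), and Actb with Actg1 gave 0.00 over all C and 0.38 over cycling libraries.

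**Figure D4:**
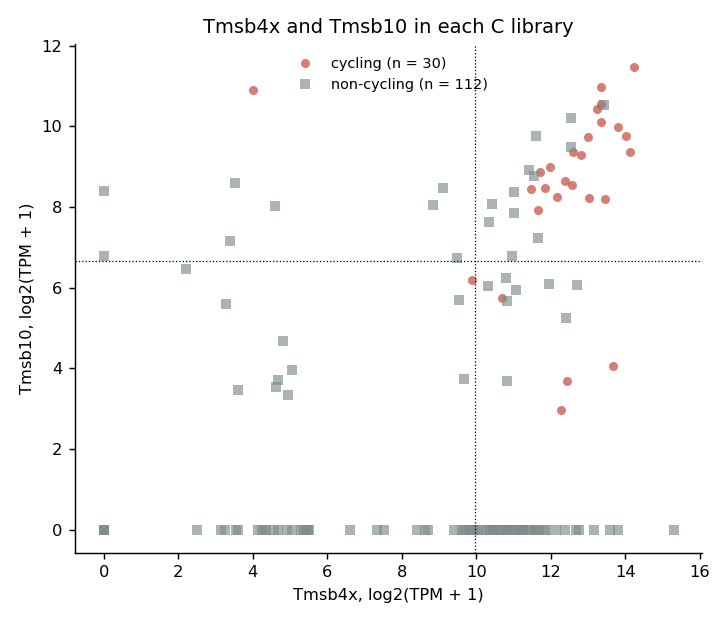
Tmsb10 against Tmsb4x, both as log2(TPM + 1), with 1 point for each of the 30 cycling and the non-cycling C libraries; dotted lines mark 1000 TPM of Tmsb4x and 100 TPM of Tmsb10. The upper right field holds 21 cycling and 12 non-cycling libraries, and 74 non-cycling libraries lie on the 0 line of Tmsb10.

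An order of C libraries that used no member, no listed gene and no cycle call was also drawn. It cannot part the members from the cycle, since it also followed the cell cycle lists. It was the first principal component of the 1000 most variable genes in the C libraries left after the 16 with another cell type's list at 4, and held 7.63% of the variance. It followed the mean of 82 ribosomal protein genes (rho 0.91), and less closely the intermediate progenitor list (0.55), the S phase list (0.52), the G2 and mitosis list (0.29), the neural stem cell list (-0.10) and the number of genes seen (0.31). Along it, rho was 0.51 for Tmsb4x, 0.43 for Tmsb10, 0.41 for Pfn1, 0.36 for Actg1, 0.08 for Cfl1 and -0.04 for Actb. That put 4 of 6 members at 0.3 or above, where 4.62% of all genes were; the same cells had chosen the members, and nothing is read from the count. Tmsb4x ranked 11 of the 12007 genes and Actb 9304, and nothing is read from these ranks either. With the ribosomal mean itself, rho was 0.57 for Tmsb4x, 0.39 for Tmsb10, 0.27 for Pfn1, 0.36 for Actg1, 0.07 for Cfl1 and -0.03 for Actb. C142 was not among the 16 left out, and in an order drawn without it rho was 0.55 for Tmsb4x.

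Thymosin levels were highest at the end of the order. In 5 bins of 26, 25, 25, 25 and 25 libraries, holding 0, 1, 1, 5 and 20 cycling ones, the Tmsb4x median was 43.6, 738, 987, 1828 and 6231 TPM. The Tmsb10 median was 0, 10.1, 0, 0 and 374 TPM. Pfn1 was higher from the third bin on, with medians of 0, 3.74, 79.1, 127.6 and 522 TPM, and Actg1 had 340, 401, 930, 1549 and 1662 TPM. Actb dipped in the middle, with 3800, 3056, 2254, 2714 and 3895 TPM. Over the 99 non-cycling libraries alone, rho was 0.22 for Tmsb4x, 0.10 for Tmsb10, 0.33 for Pfn1, 0.29 for Actg1 and -0.31 for Actb.

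**Figure D5:**
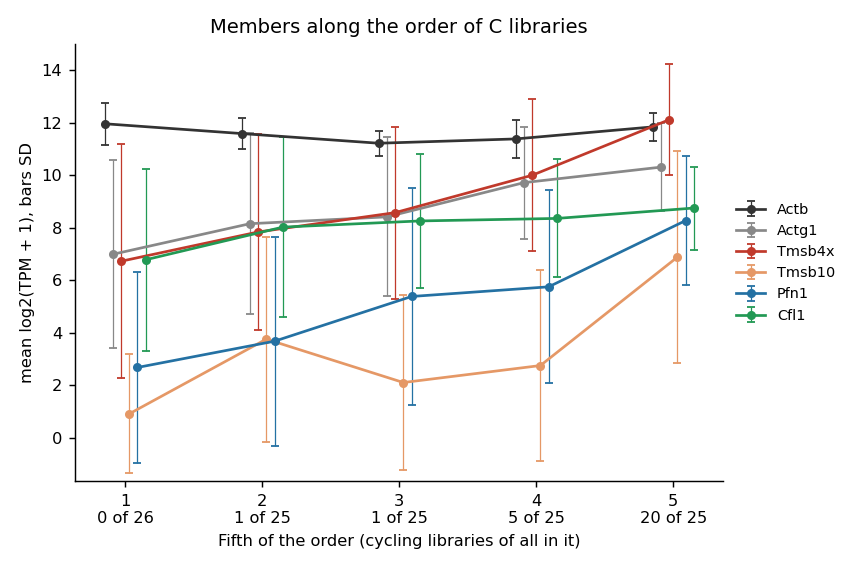
Mean log2(TPM + 1) of the 6 genes in 5 successive bins of the order of C libraries, with the number of cycling libraries in each bin under the axis; bars are 1 SD over libraries. Tmsb10 has its highest mean in the last bin (6.89 ± 4.03), with 20 of 25 libraries cycling, though the bars of the bins overlap. Actb has a median of 2254 to 3895 TPM throughout.

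Cycling and non-cycling libraries were also set side by side within stretches of the order, where they still differed in place: of the 26 cycling libraries in its upper part 20 lay in the last bin, and of the 37 non-cycling ones 5. In that upper part, 26 cycling and 37 non-cycling libraries had Tmsb4x medians of 6170 and 1283 TPM, Tmsb10 medians of 386.6 and 0 TPM and Pfn1 medians of 505 and 127.6 TPM. The log2 differences there were 3.51, 5.33 and 2.29 for these 3 genes, and 0.55 for Actg1, under the call. In the last bin alone, with 20 cycling and 5 non-cycling libraries, Tmsb4x medians were 7658 TPM in cycling and 1258 TPM in non-cycling libraries, and Tmsb10 medians 451 and 0 TPM. The differences in that bin were 2.87 for Tmsb4x and 4.67 for Tmsb10, while Pfn1 (0.83), Actg1 (0.40), Actb (0.26) and Cfl1 (-0.57) were under the call. Among cell types within C, the 11 libraries led by the intermediate progenitor list had medians of 8121 TPM for Tmsb4x and 714 TPM for Tmsb10, against 1079 and 0 TPM in the 78.2% of C libraries led by the stem cell list. Of the 12 C libraries with the intermediate progenitor list at 4 or above, 11 were cycling, so this largely repeats the cycling comparison. The 1 non-cycling library among them (C138) had 5979 TPM of Tmsb4x and 714 TPM of Tmsb10.

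For each member, the 3 genes outside the set with the highest rho over all C libraries were taken. For Tmsb10 they were 1190002F15Rik (0.54, at 1 TPM in 29 libraries), Stmn1 (0.48), which binds tubulin subunits, and Hmgn2 (0.47), a nucleosome binding protein. For Tmsb4x they were Ptma (0.48), Hmgb2 (0.46) and the ribosomal protein gene Rpl32 (0.46). For Actg1 they were Acta1 (0.41), Hmgb1 (0.36) and Hmgn2 (0.34), and for Actb they were Acta1 (0.52), Lrrc58 (0.40) and Hist1h1c (0.35, at 1 TPM in 38 libraries), of which Acta1 and Lrrc58 share stretches of 50 bases with Actb. Pfn1 was most like Cct7 (0.37), Svip (0.36, at 1 TPM in 23 libraries) and Erh (0.36), and Cfl1 like Mrps33 (0.33), Eif5a (0.28) and Cuedc2 (0.28). Such rho values in sparse data are weak.

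Promoter windows of the RefSeq table (build GRCm38.p6, where the authors used mm9) were found for 5 members, all but Actb. The 250 bases before each start were searched on both strands for the CArG box, the site of serum response factor, which drives many actin genes, for TATAAA, for CCAAT and for GGGCGG. The CArG box was in the Actg1 window alone, with its first base 90 bases before the start, and in 1.47% of the 32851 windows. CCAAT was in the Actg1 and Cfl1 windows and in 33.8% of all windows. GGGCGG was in those of Actg1, Tmsb4x, Tmsb10 and Pfn1 and in 32.7% of all windows, and TATAAA was in none of the 5 and in 12.4% of all windows. Shown are the thymosins, which were high together in cycling libraries, and Actg1 for its CArG box. Each runs from 5′ to 3′, is cut where an annotated GENCODE transcript of the gene begins, and has motif matches in capitals, a pair of GGGCGG matches in Actg1 overlapping.
Tmsb4x (chrX:167209316-167209468, minus strand): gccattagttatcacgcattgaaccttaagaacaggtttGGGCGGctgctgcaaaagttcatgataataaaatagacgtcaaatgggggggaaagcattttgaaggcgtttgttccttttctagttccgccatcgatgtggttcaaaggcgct
Tmsb10 (chr6:72958749-72958998, minus strand): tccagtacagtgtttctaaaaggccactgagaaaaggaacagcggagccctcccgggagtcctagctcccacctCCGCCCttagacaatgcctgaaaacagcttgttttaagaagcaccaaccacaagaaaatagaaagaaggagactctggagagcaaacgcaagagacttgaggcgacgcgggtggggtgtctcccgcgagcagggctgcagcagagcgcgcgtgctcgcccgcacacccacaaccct
Actg1 (chr11:120348543-120348745, minus strand): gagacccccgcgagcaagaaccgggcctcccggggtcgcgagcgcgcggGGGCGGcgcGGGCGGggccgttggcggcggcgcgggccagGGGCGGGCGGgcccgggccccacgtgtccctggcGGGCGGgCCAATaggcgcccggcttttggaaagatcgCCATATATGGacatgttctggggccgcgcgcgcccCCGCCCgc
Of the 4 motifs, the Tmsb4x and Tmsb10 windows share GGGCGG alone, 211 and 176 bases before their starts. These distances, and that of the CArG box, are counted to the RefSeq start of the window. For Tmsb4x and Actg1 that start lies past the end of the printed bases. A match describes the letters and no binding was measured.

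The other genes of the actin system were read from 13 lists, chosen with earlier results known, which held 151 genes that are no member; those among the tested genes are counted here. In cycling minus non-cycling libraries 25 of them (19.1%) were called higher and 9 (6.87%) lower, with a median of 0.19. Over all genes 15.1% were called higher and 4.14% lower, with a median of 0.05, so the shares lie near the background, against which the counts of each list below are also to be read. Of 9 nonmuscle myosin and cytokinesis genes, 4 were higher, among them Anln (3.11), which encodes anillin of the contractile ring, and Ect2 (2.46), which switches on RhoA for division. Anln and Ect2 reached 10 TPM in 13 and 10 of 30 cycling and in 0 non-cycling libraries. Both serve division and the grouping rests on cycle genes, so their difference largely follows from the grouping. Among 10 tropomyosin and calponin genes 3 were higher, led by Tpm4 (4.20; medians 179 TPM in cycling and 0.83 TPM in non-cycling libraries) and Tagln3 (2.56).

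Genes that attach or join filaments gave a mixed picture. Of 9 membrane and adhesion linkers 4 were higher in cycling libraries and 1 lower, with Rdx (2.94), which encodes radixin, leading those that were higher. Among 13 crosslinking genes 2 were higher and 2 lower, with Marcks (2.80; medians 619 TPM in cycling and 121.2 TPM in non-cycling libraries) at one end and the spectrin gene Sptbn1 (-1.73) at the other. Of 10 genes of the Arp2/3 complex, which seeds branched filaments, 3 were higher, the largest being Arpc5 (2.31), and of 15 severing and turnover genes 3 were higher, including Coro1c (2.74) and the second cofilin Cfl2 (2.61). Among 8 other monomer binders only Twf1 (1.08) was higher, and the neuronal profilin Pfn2 was lower (-1.18). Of 11 capping genes 2 were higher and 2 lower, from Capza2 (1.54; medians 77.8 TPM in cycling and 3.83 TPM in non-cycling libraries) to Tmod2 (-2.13; medians 0.90 TPM in cycling and 39.7 TPM in non-cycling libraries). No formin and elongation gene of 14 was called higher.

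In C minus N, 10 genes (7.63%) were called higher and 25 (19.1%) lower, with a median of -0.05. Over all genes 9.98% were called higher and 4.19% lower, with a median of 0.17, and the rescaling described above turns that split of all genes round. The tropomyosin and calponin list had 6 of 10 lower and 2 higher, from Tpm1 (-3.24) to Cnn3 (3.43; medians 597 TPM in C and 5.38 TPM in N). The myosin light chain genes Myl12a (-3.24) and Myl12b (-3.23) were lower in C, as was Sptbn1 (-3.42; medians 1.51 TPM in C and 234 TPM in N). The linker Ezr (2.92), which encodes ezrin, and the nucleator Spire1 (2.19) were higher. Acta2, the smooth muscle actin and a mural marker, reached 10 TPM in 15 C (10.6%) and 9 of 26 N libraries (-2.26). In R minus C, 50 (38.2%) were called higher and 26 (19.8%) lower, with a median of 0.26, where 20.9% of all genes were called higher and 22% lower, with a median of -0.36.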

How the data were processed

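Per the labels' protocols, total RNA of single cells was made into libraries with the NuGEN Ultralow V2 kit. The authors deposited TPM per gene, and the submitters' processing notes name RSEM and mm9. The RSEM version, aligner, annotation and cell filters were not given in the sources used here. TPM sums were equal across columns, 78.5% of values were 0, and depth is unknown. Of 173 listed samples the table has 172 columns; the column C27 fits 2 titles and was used as a C library, giving 142 C libraries (30 cycling, 112 non-cycling; 126 in the order). Doublets were not called.

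Values were analysed as log2(TPM + 1), which understates changes of low genes, with Python 3.11.15, numpy 2.4.6, pandas 2.3.3, scipy 1.17.1 and matplotlib 3.10.9. Genes needed 1 TPM in 5% of libraries. Differences are between group means and are called at 1. The order was a first principal component, turned so that the stem cell list falls along it. The steps were tested on simulated data. Members, the 29 lists (14 of cell types, 2 of the cell cycle, 13 of actin with 131 tested genes that are no member) and the limits were chosen with earlier results of these data known. Named are the 6 members, in each actin list the 2 genes with the largest absolute C minus N and cycling minus non-cycling difference, and for each member the 3 genes with the highest rho; not all are printed. C142, C140 and N5 were singled out for their values. Other settings were other pseudocounts, no filter, rescaling by the median ratio, ratios of mean TPM, other limits and libraries left out.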

Additional observations from a re-analysis of the deposited data

Results flagged for a closer look

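Among the 4 R libraries, R2 held 9559 TPM of Tmsb4x, against 6197, 6498 and 6642 TPM in the others. On the log2(TPM + 1) scale its gap to the nearest of them was 0.84 of the whole range of the class, which is why it is listed; chance gives such a gap in about 1 in 20 groups, and 6 genes were looked at. The libraries are single cells and Tmsb4x was chosen with these levels known, so this is a description and no test. Without R2, R minus C for Tmsb4x was 3.36 on the log2 scale, against 3.50 with it.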

How the results depend on the processing

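Of 289 values recomputed under an alternative, 259 moved by less than a set limit and 30 by more, and no called difference changed sign. The limit was 1.5 times for counts, 0.1 for rho and, for a member difference, its SD over C libraries (0.72 for Actb, 4.02 for Tmsb10). That SD is wide, so 190 of 192 member differences fell under it, and the count says little about stability. Tmsb10 in R minus C, at 2.55 and then 0.14 as a ratio of mean TPM, was among those under it. Among the members, 6 called differences did not stay past 1 in an alternative, namely Actb in C minus N without endothelial or mural N libraries (-0.59, 15 left), Actg1 (0.01) and Tmsb10 (0.14) in R minus C and Actg1 (0.59) and Pfn1 (0.91) in cycling libraries as ratios of mean TPM, and Actg1 in the upper part of the order (0.55). Rescaling gave Actb -2.32 in C minus N and 1.39 in R minus C. The cause of these changes was not tested.

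Counts over all genes moved with the scale. For C minus N (1198 higher, 503 lower) they were 2491 and 974 with a pseudocount of 0.1, 448 and 162 with 10, 531 and 1035 after rescaling, 4263 and 2158 as ratios of mean TPM, and 1213 lower without vascular N libraries. For R minus C (2513 higher, 2640 lower) they were 4459 lower with 0.1, 1593 and 867 with 10, 1675 lower after rescaling and 7467 lower as ratios. For cycling minus non-cycling (1819 higher, 497 lower) they were 1047 lower with 0.1, 874 and 210 with 10, 3747 lower as ratios and 928 lower in the upper part of the order.

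In non-cycling libraries alone, rho with the order was -0.31 for Actb, 0.22 for Tmsb4x and 0.10 for Tmsb10, and rho between members was -0.13 for Actb and Actg1, 0.05 for Actb and Tmsb10, 0.03 for Actg1 and Tmsb10, 0.06 for the thymosins, 0.01 for Tmsb4x and Pfn1 and 0.08 for Tmsb10 and Pfn1. Leaving out R libraries moved R minus C for Pfn1 over -2.19 to 1.40, Cfl1 over 0.29 to 1.96 and Actb over 0.19 to 0.60. No paired analysis was possible because the labels name no animal and numbers in the titles only name libraries. Depth is unknown in TPM, so a value of 0 sets no limit on a level. Libraries of 1 class may come from few animals, and the spread between cells is not a spread between animals.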
